A study of Mus musculus with 7 samples.

Results

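The 10 genes described here form the core of the mammalian circadian clock. They were chosen by name, as the rows of the count table whose Ensembl identifiers map to Per1, Per2, Per3, Cry1, Cry2, Arntl (also named Bmal1), Clock, Nr1d1, Nr1d2 and Dbp. All 10 were found among the 22027 genes listed, and all 10 passed the filter on low counts, which kept 12674 genes. The libraries were made from left ventricle of mice of the strain C57BL/6J at 12 months of age. The genotype label G3 is common to all of them and the series describes these mice as telomerase-deficient. A group with intact telomerase is not analysed here. Of the 7 libraries, 4 carried the label G3 alone and 3 the label G3 PGC1aOE, in which PGC1alpha, a coactivator of mitochondrial genes encoded by Ppargc1a, is described as overexpressed. The sources used here do not give the promoter or cell type that drives the transgene, the sex of the mice or the time of day at which hearts were taken. Each sample also carries a code whose meaning is not stated. It ends in the number 40, 67, 50 or 83 (G3 1 to 4) or 55, 81 or 82 (G3 PGC1aOE 1 to 3). The codes of G3 1 and G3 2 begin with the letter C and that of G3 4 with P, whereas that of G3 3 has no such letter. All 3 codes of G3 PGC1aOE begin with PC. The codes of G3 1, G3 3 and G3 PGC1aOE 1 also read G2, and the other 4 read G3, although all 7 libraries are labelled G3.

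In the clock, the proteins of Arntl and Clock bind DNA as a pair at E-box sites and activate the Per and Cry genes, Nr1d1, Nr1d2 and Dbp. The Per and Cry proteins then repress that pair. The Nr1d1 and Nr1d2 proteins, nuclear receptors also called REV-ERB alpha and beta, repress Arntl in a second loop through sites that ROR receptors also bind. Dbp encodes an activator that carries the rhythm to output genes through D-box sites. Heart muscle cells hold a clock of their own, and in it, as in most tissues, Arntl message stands high when Dbp, Nr1d1 and the Per messages stand low. Cry1 message follows later than the Per messages, and Cry2 varies little over the day.

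Promoter sequences are shown for 5 members because they hold motifs of the kind through which these loops act, or because the genes stand at the 2 opposite ends of the pattern described below. They come from RefSeq on GRCm38.p6, run from 250 bases before to 50 after the annotated gene start, and are written 5′ to 3′ on the gene's strand. RefSeq windows were found for 9 members, 13 windows in all, and not for Per2. The reads were aligned to mm9, so these coordinates do not apply to the count table. Capitals mark an E-box (CACGTG), a D-box (TTATGTAA or TTACGTAA) or a ROR element core (TAGGTCA), each searched on both strands. The windows are Arntl chr7:113207261-113207560 (plus strand), Dbp chr7:45704997-45705296 (plus), Per1 chr11:69098699-69098998 (plus), Per3 chr4:151044616-151044915 (minus) and Cry1 chr10:85185005-85185304 (minus).
Arntl: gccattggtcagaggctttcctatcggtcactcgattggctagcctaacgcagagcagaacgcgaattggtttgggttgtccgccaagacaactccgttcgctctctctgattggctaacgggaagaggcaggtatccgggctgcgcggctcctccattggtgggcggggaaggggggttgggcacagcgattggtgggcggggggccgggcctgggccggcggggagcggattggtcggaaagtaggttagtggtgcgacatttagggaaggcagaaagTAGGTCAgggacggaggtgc
Dbp: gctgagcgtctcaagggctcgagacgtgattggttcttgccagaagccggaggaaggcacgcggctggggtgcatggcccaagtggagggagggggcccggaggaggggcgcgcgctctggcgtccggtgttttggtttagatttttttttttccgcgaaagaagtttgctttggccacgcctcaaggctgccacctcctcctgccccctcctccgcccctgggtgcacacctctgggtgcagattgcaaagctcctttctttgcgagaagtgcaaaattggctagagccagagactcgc
Per1: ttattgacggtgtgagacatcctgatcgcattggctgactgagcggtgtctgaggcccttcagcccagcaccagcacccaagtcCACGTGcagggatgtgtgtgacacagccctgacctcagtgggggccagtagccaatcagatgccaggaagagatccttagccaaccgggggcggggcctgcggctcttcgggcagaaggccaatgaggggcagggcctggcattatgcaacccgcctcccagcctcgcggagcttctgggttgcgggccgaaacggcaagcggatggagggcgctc
Per3: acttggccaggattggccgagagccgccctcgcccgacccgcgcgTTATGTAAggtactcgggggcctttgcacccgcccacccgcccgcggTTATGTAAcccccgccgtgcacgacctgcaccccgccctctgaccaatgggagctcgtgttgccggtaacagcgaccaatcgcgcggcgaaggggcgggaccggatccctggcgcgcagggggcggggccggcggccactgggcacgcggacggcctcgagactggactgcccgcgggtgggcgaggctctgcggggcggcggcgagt
Cry1: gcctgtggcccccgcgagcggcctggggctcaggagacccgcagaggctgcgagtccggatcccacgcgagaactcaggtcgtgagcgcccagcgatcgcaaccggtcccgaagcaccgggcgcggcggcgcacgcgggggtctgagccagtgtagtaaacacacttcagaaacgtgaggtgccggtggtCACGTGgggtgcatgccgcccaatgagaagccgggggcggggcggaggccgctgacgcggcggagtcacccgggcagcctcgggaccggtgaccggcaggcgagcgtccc

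The Arntl window holds a ROR element core that begins 31 bases after the start. Per3 holds 2 copies of TTATGTAA, which begin at −205 and −158 from the start. Per1 and Cry1 each hold an E-box, at −166 and −60. An E-box was found in 2 of the 13 member windows, a D-box in 1 and a ROR element core in 1. These windows belong to 2, 1 and 1 of the 9 members. Among all 32851 RefSeq windows, 7.15% held CACGTG, 1.06% held either D-box and 2.61% held TAGGTCA. The Dbp window holds none of these letters, which says nothing of sites outside it.

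Ppargc1a measured 94.7, 56.8, 118 and 86.7 CPM (read counts per gene relative to the library's TMM-scaled total) in G3 1 to 4 and 103, 43.9 and 58.1 CPM in G3 PGC1aOE 1 to 3, and its log2 fold change was −0.38 (SE 0.34, edgeR quasi-likelihood test, adjusted p = 0.847). The message of the targeted gene was therefore not higher under the label, and every direction below rests on the label alone. Total counts ran from 10106705 to 16056740 per library. Cardiomyocyte genes such as Myh6 and Myl2 were abundant, and the 8 markers listed for ventricular cardiomyocytes summed to between 51314 and 73959 CPM. The 5 atrial markers summed to between 72.3 and 3924 CPM.

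The 2 activators showed the widest and a moderate swing between libraries. Arntl, which encodes the E-box binding protein BMAL1, measured 9.67, 8.20, 21.2 and 0.451 CPM in G3 1 to 4 and 6.44, 0.874 and 1.84 CPM in the libraries labelled G3 PGC1aOE 1 to 3. G3 3 was the highest of the 7 and G3 4 the lowest. Both carry the same label, though not the same code letters, and the groups overlapped. In the same order, these values rest on 106, 111, 236 and 6 counts for G3 and on 83, 12 and 25 counts for G3 PGC1aOE. For the 6 counts of G3 4 an exact Poisson interval runs from 0.166 to 0.982 CPM, which covers counting error only. Group means were 9.87 ± 8.55 CPM (SD, n = 4) and 3.05 ± 2.98 CPM (SD, n = 3), and the fitted log2 fold change was −1.69 (SE 1.09, 95% interval −4.25 to 0.87, edgeR adjusted p = 0.847). In such bulk tissue, fewer cells of a type and less RNA per cell cannot be told apart.

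Clock, the partner of Arntl, measured 47.6, 29.1, 63.8 and 18.4 CPM in G3 1 to 4 and 43.5, 12.7 and 18 CPM in G3 PGC1aOE 1 to 3. Its highest library was again G3 3, and the 3 lowest were G3 4, G3 PGC1aOE 2 and G3 PGC1aOE 3. The log2 fold change was −0.68 (SE 0.50, 95% interval −1.81 to 0.44, edgeR adjusted p = 0.847).

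Among the repressors, Per2 and Per3 were lowest in the library where Arntl was highest. Per2 measured 21.1, 42.4, 6.82 and 55.2 CPM in G3 1 to 4 and 25, 71.8 and 44.0 CPM in G3 PGC1aOE 1 to 3. G3 3 was the lowest and G3 PGC1aOE 2 the highest, and the groups overlapped. Per3 measured 12.2, 21.7, 5.47 and 34.4 CPM in G3 and 26.9, 44.8 and 26.7 CPM in the libraries labelled G3 PGC1aOE, again lowest in G3 3. The log2 fold change was 0.58 for Per2 (95% interval −0.85 to 2.01, edgeR adjusted p = 0.857), and 0.83 for Per3 (95% interval −0.32 to 1.98, edgeR adjusted p = 0.847).

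Per1, which like Per2 is also induced acutely by hormonal and stress signals, was less ordered. It measured 73.0, 98.9, 28.5 and 127 CPM in G3 1 to 4 and 109, 99.7 and 58.6 CPM in G3 PGC1aOE 1 to 3. G3 3 was the lowest here too, but G3 PGC1aOE 1 stood near the top and G3 PGC1aOE 3 was next to the lowest. The log2 fold change was 0.12 (95% interval −0.83 to 1.08, edgeR adjusted p = 0.953).

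The cryptochrome genes, whose proteins repress the activator pair together with the Per proteins, varied least. Cry1 measured 7.48, 12.8, 15.0 and 12.8 CPM in G3 and 9.32, 11.7 and 13.5 CPM in the libraries labelled G3 PGC1aOE, a range of 2.0-fold over all 7. Cry2 measured 30.5, 44.6, 23.9 and 49.5 CPM in G3 and 32.2, 28.1 and 30.3 CPM in the libraries labelled G3 PGC1aOE, a range of 2.07-fold. The log2 fold changes were −0.06 for Cry1 (95% interval −0.65 to 0.53, edgeR adjusted p = 0.963) and −0.30 for Cry2 (95% interval −0.88 to 0.29, edgeR adjusted p = 0.847).

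The nuclear receptor genes of the second loop varied over a smaller range than Per2 and Per3. Nr1d1 measured 35.3, 40.9, 36.1 and 66.5 CPM in G3 1 to 4 and 31.8, 57.2 and 43.7 CPM in G3 PGC1aOE 1 to 3. Nr1d2 measured 61.5, 70.9, 40.7 and 101 CPM in G3 and 72.7, 86.9 and 98.5 CPM in the libraries labelled G3 PGC1aOE. Both were highest in G3 4, and the next highest were G3 PGC1aOE 2 and 3, in that order for Nr1d1 and in reverse for Nr1d2. Nr1d1 was lowest in G3 PGC1aOE 1 and Nr1d2 in G3 3. The log2 fold change was −0.02 for Nr1d1 (95% interval −0.65 to 0.62, edgeR adjusted p = 0.992) and 0.33 for Nr1d2 (95% interval −0.33 to 0.98, edgeR adjusted p = 0.847).

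Nr1d1 and Dbp each share exon sequence with a counted gene on the opposite strand. In the GENCODE M21 annotation Thra, a thyroid hormone receptor gene, overlaps 8.5% of the Nr1d1 exon bases, and Sphk2, a sphingosine kinase gene, overlaps 18% of those of Dbp. On the opposite strand, D930015M05Rik also overlaps 4.7% of the exon bases of Cry2, and Gm45355 overlaps 0.4% of those of Arntl. Neither of these was listed in the count table. The library kit does not mark strand, so reads in the shared parts cannot be assigned to either gene. Thra measured 78.3, 82.5, 74.7 and 68.7 CPM in G3 and 74.0, 49.3 and 49.7 CPM in the libraries labelled G3 PGC1aOE. It was lowest in G3 PGC1aOE 2 and 3, where Nr1d1 measured 57.2 and 43.7 CPM. In G3 4, which had the most Nr1d1 at 66.5 CPM, Thra measured 68.7 CPM. Sphk2 stayed between 13.3 and 25 CPM over all 7 libraries.

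Dbp, the output activator, mirrored Arntl at both ends of the library order. It measured 16.2, 20.5, 3.5 and 87.0 CPM in G3 1 to 4 and 17.5, 72.7 and 56.1 CPM in G3 PGC1aOE 1 to 3. G3 4, the library with the least Arntl, had the most Dbp, and G3 3, with the most Arntl, had the least. The top Dbp value was 24.9 times the lowest, against 46.9 times for Arntl. The log2 fold change between groups was 0.61 (SE 0.97, 95% interval −1.68 to 2.90, edgeR adjusted p = 0.896).

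Levels of different genes were compared per gene length, as FPKM from the deposited table. In G3 the mean level was highest for Nr1d1 and Dbp, at 26.1 ± 6.92 and 26.1 ± 28.6 FPKM (SD, n = 4), and next for Per1 at 24.4 ± 11.9, Nr1d2 at 22.3 ± 7.35 and Cry2 at 18 ± 5.71 FPKM. Per2, Clock, Per3 and Cry1 followed at 10.7 ± 7.04, 8.43 ± 4.15, 4.50 ± 2.84 and 4.10 ± 1.03 FPKM, and Arntl was last at 3.55 ± 2.91 FPKM. Neighbours in this order lay within the larger of their SDs of each other, except that Cry2 and Per2 were only just further apart. In the libraries labelled G3 PGC1aOE the mean was highest for Dbp at 36.9 ± 19.8 FPKM and lowest for Arntl at 1.09 ± 1.20 FPKM (SD, n = 3).

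**Figure D1:**
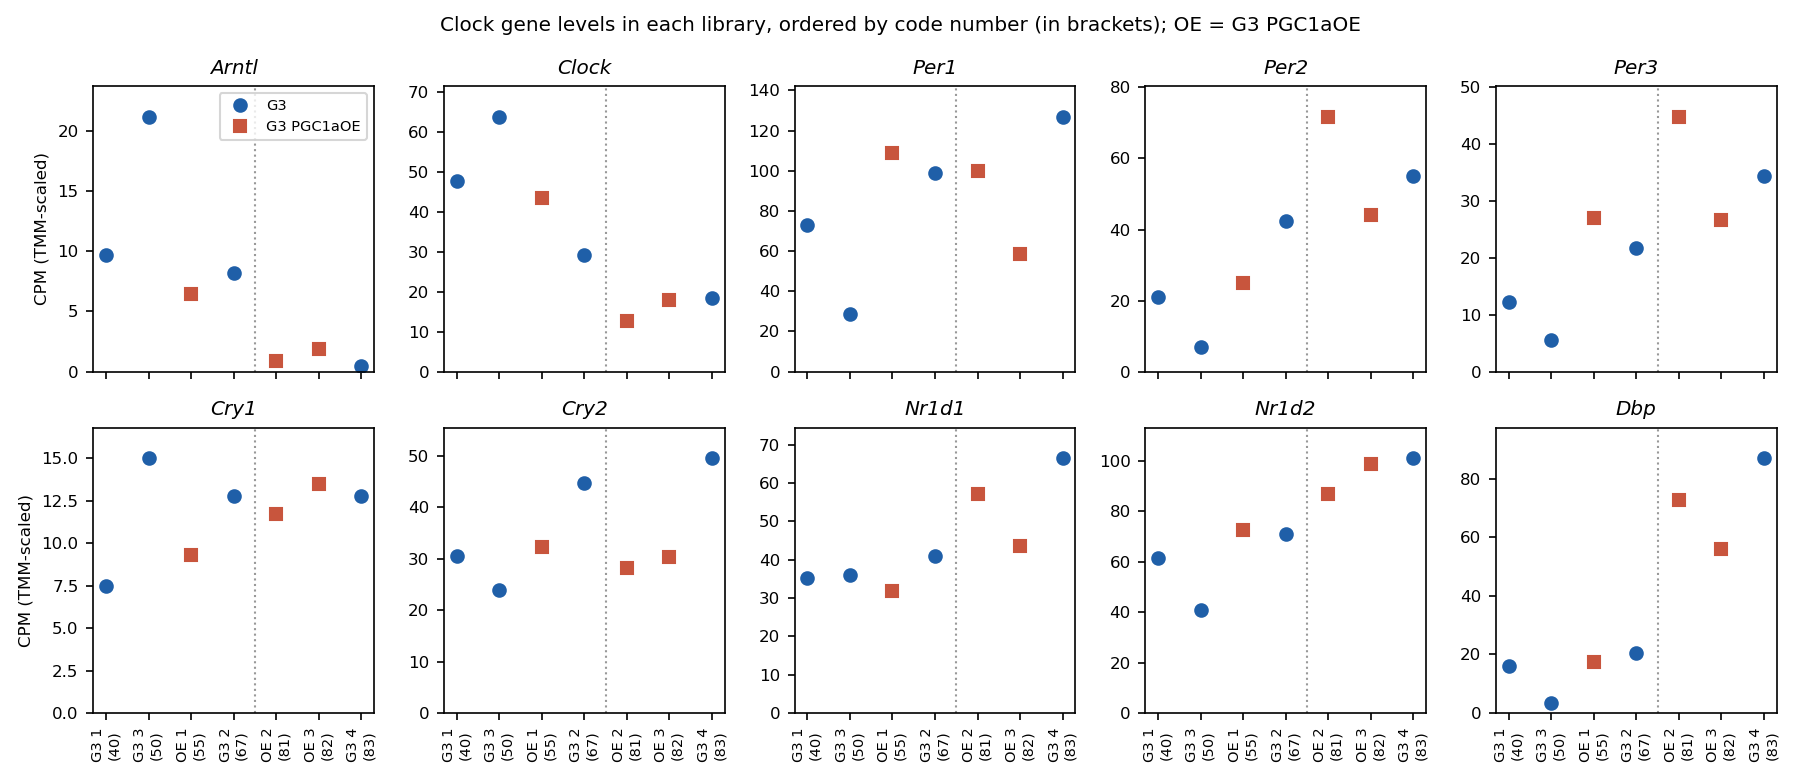
Level of each of the 10 clock genes (CPM, TMM-scaled, vertical axes from 0) in the 7 libraries, ordered by code number; circles are G3 and squares G3 PGC1aOE (OE), and the dotted line parts code numbers below 80 from those above. Arntl and Clock are low and Dbp, Per2, Nr1d1 and Nr1d2 high in the 3 libraries on the right, which hold both labels.

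Between the labelled groups, none of the 10 genes passed the threshold and all 10 overlapped. Of all tested genes 0.00% were called by edgeR, and the groups did not overlap for 4.58%. At an unadjusted p under 0.05 stood 0 members, against 4.32% of all genes. The members divided evenly, with 5 log2 fold changes above 0 and 5 below and a median of 0.05, beside a median of 0.01 over all tested genes. The exact permutation test of log2 CPM between the groups, 2-sided and with a smallest possible p of 0.0286, gave values from 0.229 for Per3 to 1 for Nr1d1. DESeq2 and limma voom called 0 members as well. The intervals above are wide for Arntl, Dbp and Per2, so a sizeable difference of either sign remained within them, whereas those of Cry1, Cry2, Nr1d1 and Nr1d2 stayed within a log2 change of 1.

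**Figure D2:**
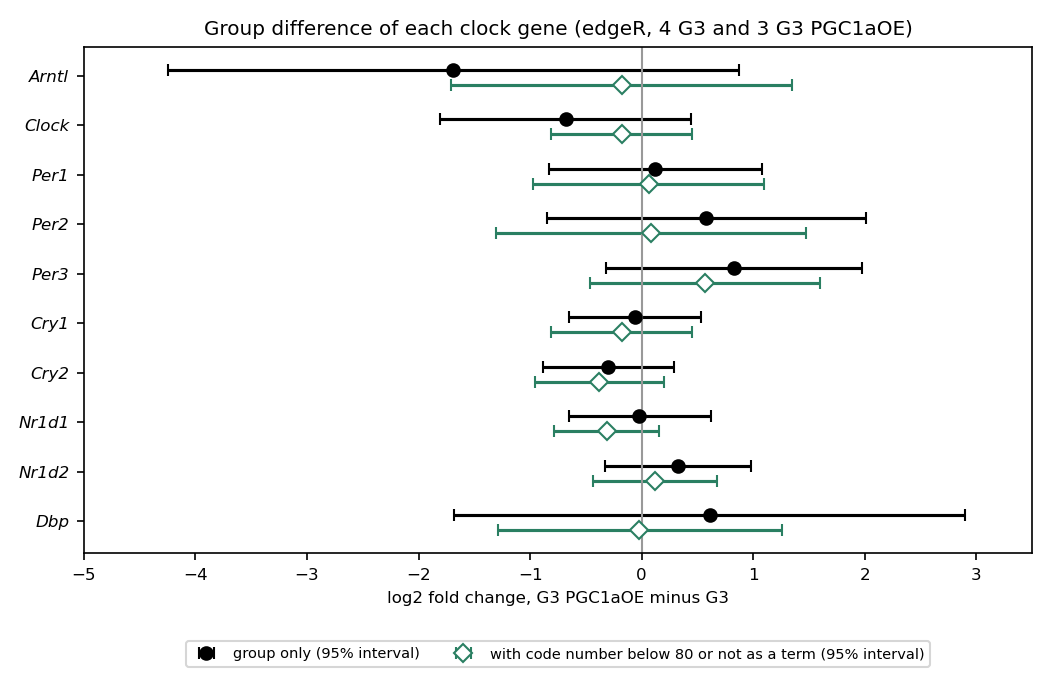
Log2 fold change (G3 PGC1aOE minus G3) of each clock gene with its 95% interval, fitted with group alone (filled circles) and with code number below 80 or not as a further term (open diamonds). Every interval of both fits spans 0, and for Arntl the estimate moved from −1.69 to −0.18.

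The spread inside the groups was far from even across the clock. Pooled over both groups, the within-group SD of Arntl was 1.93 on the log2 CPM scale (prior count 2), rank 46 of 12674 tested genes from the most variable. Dbp had 1.61 (rank 103) and Per2 1.14 (rank 295). Per3, Clock and Per1 had 0.91, 0.84 and 0.79 (ranks 570, 744 and 924). The SD was between 0.37 and 0.44 for Cry1, Cry2, Nr1d1 and Nr1d2, which held ranks from 4467 to 6026.

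For 6 members the libraries parted by the number in the sample code, for 4 of these 6 also by the G2 or G3 in that code, and for none by the genotype label. The 3 libraries numbered 81, 82 and 83 are G3 PGC1aOE 2, G3 PGC1aOE 3 and G3 4, and the 4 numbered 40 to 67 are G3 1, G3 2, G3 3 and G3 PGC1aOE 1. Arntl lay between 0.451 and 1.84 CPM in the former and between 6.44 and 21.2 CPM in the latter, a difference of −3.27 on the log2 CPM scale. Dbp lay between 56.1 and 87.0 CPM against 3.5 to 20.5 CPM, a difference of 2.54. By size, these differences ranked 19 and 45 among the 12674 tested genes.

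Clock and Arntl were lower, and Per2, Nr1d1, Nr1d2 and Dbp higher, in all 3 libraries numbered above 80 than in any of the other 4. That is 2 of 10 members lower, against 8.81% of all tested genes, and 4 of 10 higher, against 10.2%. Together these are 6 of 10 members, beside 19.0% of all genes. The difference was −1.45 for Clock, 1.49 for Per2, 0.61 for Nr1d1 and 0.67 for Nr1d2 on the log2 CPM scale. For Per2 the gap by number was narrow, with 44.0 CPM in G3 PGC1aOE 3 against 42.4 CPM in G3 2. Per3 overlapped because G3 PGC1aOE 1 lay just above G3 PGC1aOE 3, at 26.9 against 26.7 CPM, and its mean difference was 1.29. Per1, Cry1 and Cry2 overlapped, with differences of 0.39, 0.23 and 0.12. This division by code number was chosen with earlier results of these data known and is given as a description, with no test.

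The G2 or G3 text of the code parts the libraries almost alike, since only G3 2, numbered 67 with a code that reads G3, changes sides. By that text 4 of 10 members did not overlap, against 22.2% of all tested genes. Clock lay between 43.5 and 63.8 CPM in the 3 libraries whose code reads G2 and between 12.7 and 29.1 CPM in the other 4. Per2 lay between 6.82 and 25 CPM against 42.4 to 71.8 CPM, a wider gap than by number, with a difference of 1.75 on the log2 CPM scale. Nr1d1 lay between 31.8 and 36.1 CPM against 40.9 to 66.5 CPM, and Dbp between 3.5 and 17.5 CPM against 20.5 to 87.0 CPM. Arntl and Nr1d2 overlapped by the text, through G3 2. The number and the text can hardly be told apart in 7 libraries.

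Within each set of code numbers the label could be compared only with 1 library on a side. Below 80, Arntl in G3 PGC1aOE 1 differed from the mean of the 3 G3 libraries by −0.87 on the log2 CPM scale. Above 80, the mean of the 2 libraries labelled G3 PGC1aOE differed from G3 4 by 1.24. For Dbp these values were 0.71 and −0.45, and for Per1 0.88 and −0.73. Clock differed by −0.04 and −0.28, Per2 by 0.45 and 0.03, and Per3 by 1.24 and 0.01. A fit that also held the code number gave Arntl a log2 fold change of −0.18 (SE 0.68) and Dbp one of −0.02 (SE 0.55), both with an edgeR adjusted p = 1. That fit called 0 members and 0.00% of all genes, and at an unadjusted p under 0.05 stood 2.42% of all genes.

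Other features of the libraries moved with the code number. Total counts were 14119403, 14891420 and 16056740 in the libraries above 80 and at most 12016705 in the others. The Arntl counts themselves were lower in these larger libraries. The median length of the gene to which a read was counted was between 1144 and 1378 bases above 80 and between 1434 and 1545 below. With each library's trend on gene length removed, a step chosen after seeing the data, Arntl differed by −3.12 and Clock by −1.17 on the log2 scale. Per2 then differed by 1.64 and Dbp by 2.40. The summed level of 6 endothelial markers was 724 to 1120 CPM above 80 against 552 to 698 CPM below, with 1 of the 6 not overlapping. That of 5 lymphocyte markers was 3.75 to 5.53 CPM against 0.448 to 1.16 CPM, with both of the 2 tested markers not overlapping. The sums of the other 7 marker lists overlapped. Among the 8 ventricular cardiomyocyte markers, 2 were higher and 1 lower without overlap above 80. Beside these marker counts, 19.0% of all tested genes did not overlap by code number. No defining marker was at 0 in every library. Whether library size, gene length or these cell types had a part in the clock gene levels was not tested. Library size and gene length parted with the code number and cannot be told apart from it here.

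The ratio of Arntl to its opposite-phase partners was read library by library, as a description. On the log2 CPM scale, Arntl minus Dbp was −0.74, −1.31, 2.54 and −7.16 across G3 1 to 4. It was −1.42, −6.14 and −4.82 across the libraries labelled G3 PGC1aOE 1 to 3. G3 3 alone had a higher CPM of Arntl than of Dbp, and G3 4, of the same label, lay at the other end. The same held per gene length, since Arntl stood at 7.24 FPKM in G3 3 against 2.87 FPKM for Dbp, and at 0.146 FPKM in G3 4 against 67.8 FPKM. The ratio averaged −1.67 ± 4.04 (SD, n = 4) under G3 and −4.13 ± 2.44 (SD, n = 3) in the libraries labelled G3 PGC1aOE.

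The other ratios set the same libraries at the 2 ends. Arntl minus Per2 was −1.11, −2.35, 1.61 and −6.51 across G3 1 to 4. It was −1.93, −6.13 and −4.46 across the libraries labelled G3 PGC1aOE 1 to 3. Arntl minus Nr1d1 ran from −2.30 to −0.76 below a code number of 80 and from −6.78 to −4.46 above. For Nr1d2 the ranges were −3.47 to −0.94 and −7.38 to −5.63. For Per3 they were −2.04 to 1.92 and −5.83 to −3.75, and for Per1 −4.05 to −0.43 and −7.70 to −4.88. All 6 ratios were lower in each library above 80 than in any below, and all 6 overlapped between the labelled groups. Since each ratio holds Arntl, they are not independent of each other. Arntl alone parted these sets by −3.27 and was itself highest in G3 3 and lowest in G3 4, so every ratio carries that split. Per1 overlapped by code number, with a difference of 0.39, whereas its ratio differed by −3.66.

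**Figure D3:**
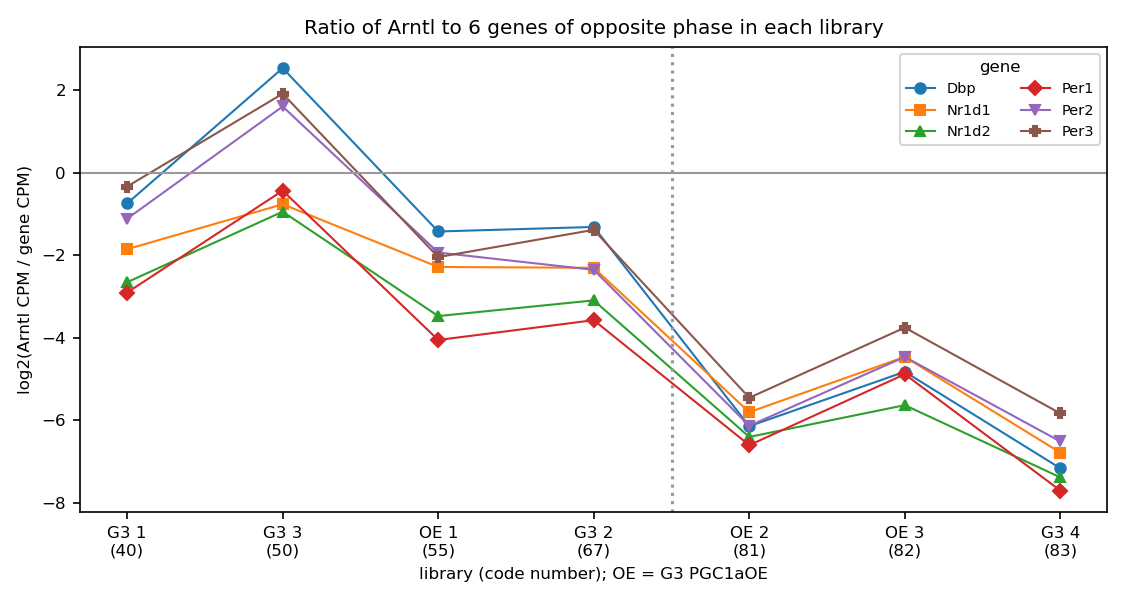
Log2 ratio of Arntl to 6 genes of opposite phase (vertical axis, from log2 CPM with a prior count of 2) in each library, ordered by code number; lines join the values of 1 gene. G3 3 is the highest library for every ratio and G3 4 the lowest, and both carry the same label with different code letters. Arntl alone has the same highest and lowest libraries.

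Inside the sets, the measured order of Arntl and Dbp was opposite in full above a code number of 80 and at its high end below. Above a code number of 80, Arntl ran 1.84, 0.874 and 0.451 CPM in G3 PGC1aOE 3, G3 PGC1aOE 2 and G3 4, where Dbp ran 56.1, 72.7 and 87.0 CPM. These Arntl values rest on only 25, 12 and 6 counts. Their exact Poisson 95% intervals were 1.19 to 2.72, 0.451 to 1.53 and 0.166 to 0.982 CPM. Neighbours overlap, so counting error alone could change the order of Arntl there. Below 80, the library with the most Arntl, G3 3, had the least Dbp, Per1, Per2, Per3, Cry2 and Nr1d2. Of the 10 members, 6 had their lowest value of all 7 libraries in G3 3 and 3 had their highest there, and 5 had their highest in G3 4. Because Arntl splits the libraries into separate sets of 4 and 3, each too small for a correlation of its own, no correlation was tested.

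**Figure D4:**
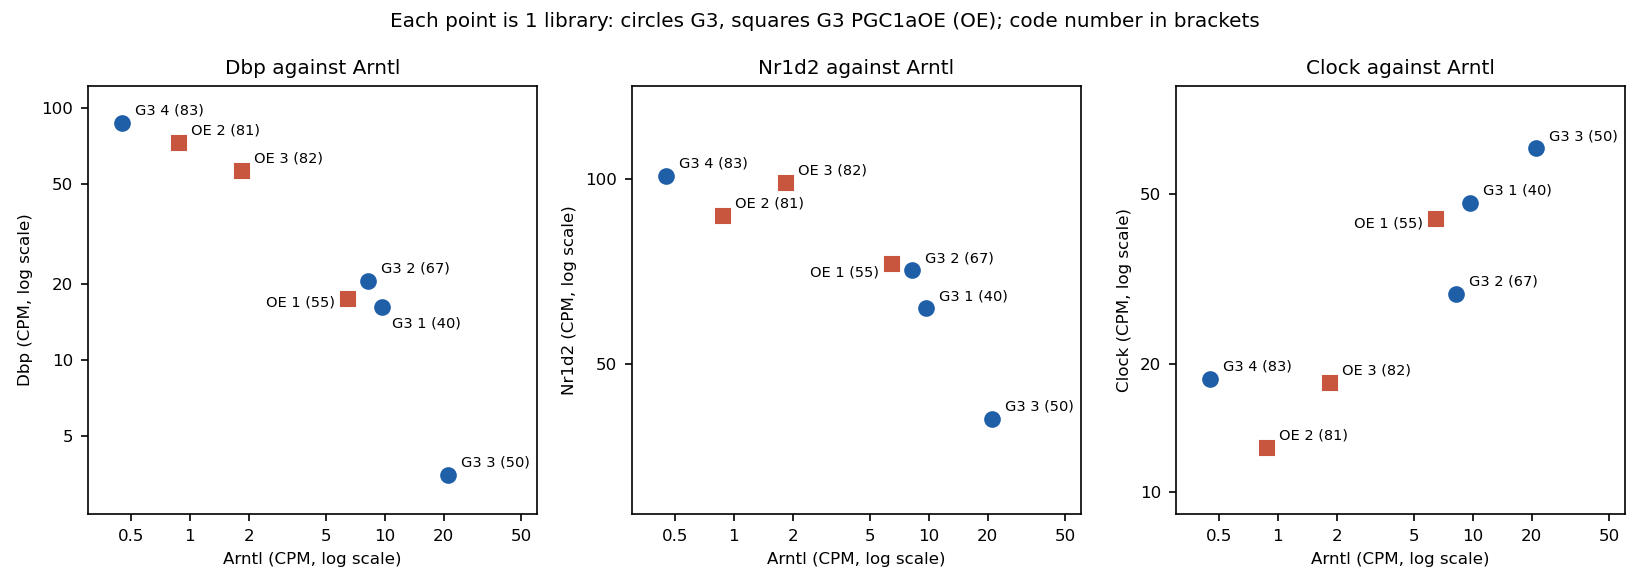
CPM of Dbp, Nr1d2 and Clock against CPM of Arntl, both axes on a log scale; each point is 1 library with its code number in brackets. In G3 3, on the right, Dbp and Nr1d2 are lowest and Clock is highest, and squares (G3 PGC1aOE) lie in both sets.

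Pearson's r of log2 CPM over the 7 libraries served only as a score of likeness to Arntl among the other 12673 tested genes. Dbp scored −0.95, the fifth most opposite of all genes. Nr1d2 and Nr1d1 both scored −0.89 and were 76 and 83 from the most opposite end, and Per3 and Per2 scored −0.85 and −0.84 and were 185 and 192. Per1 scored −0.61 and Cry2 −0.44. Clock scored 0.91, rank 33 among the most alike, and Cry1 −0.16. With each group centred on its own mean, the score was −0.94 for Dbp, −0.95 for Nr1d1 and 0.90 for Clock. Among genes whose log2 CPM averaged 2 or more, those most like Arntl were St3gal5 (0.97), Slc17a7 (0.96), Ttc23 (0.96), Grk5 (0.95) and Tdp2 (0.95). Those most opposite were Ift122 (−0.97), Gmpr (−0.96), Hdac4 (−0.96), Arhgef3 (−0.96) and Dbp. Grk5, a kinase of G protein-coupled receptors, averaged 41.7 CPM below a code number of 80 and 16.7 CPM above.

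Other genes of the clock were read from a list of 16, of which 15 were tested and Fbxl21 had too few counts. None passed between the labelled groups, 0 stood at an unadjusted p under 0.05, and 6 log2 fold changes were above 0 and 9 below, with a median of −0.13. By code number, 3 of the 15 were lower and 3 higher without overlap, beside 8.81% and 10.2% of all tested genes. Npas2, a stand-in for Clock, measured 3.56, 2.88, 4.57 and 2.10 CPM in G3 1 to 4 and 5.82, 1.02 and 1.4 CPM in G3 PGC1aOE 1 to 3. Its difference by code number was −1.40 on the log2 scale, close to that of Clock, and its groups overlapped.

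ROR receptors are activators of Arntl and bind elements of the kind marked in its promoter above. Rora measured between 14.3 and 25.9 CPM above a code number of 80 and between 27.8 and 33.9 CPM below. Rorb, at most 2.64 CPM, was also lower without overlap. Between the labelled groups the log2 fold change was −0.45 (SE 0.25, edgeR adjusted p = 0.847) for Rora.

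Relatives of Dbp and further repressors were read next. Hlf, a relative of Dbp with the same D-box target, measured 6.38, 13.9, 10.9 and 38.3 CPM in G3 1 to 4 and 13.0, 24.0 and 30.0 CPM in G3 PGC1aOE 1 to 3. Ciart, a repressor of the Arntl and Clock pair, measured 7.30, 8.87, 2.69 and 17.2 CPM in G3 and 5.51, 15.1 and 10.7 CPM in the libraries labelled G3 PGC1aOE. Both were higher in each library above a code number of 80, by 1.50 and 1.31 on the log2 scale, and Timeless by 1.03. Tef, the third of that family, was lowest in G3 3 at 56.3 CPM and lay between 131 and 178 CPM in the other 6 libraries. Nfil3, which represses through D-boxes, was highest in G3 3 at 25.6 CPM and lay between 10.2 and 19.3 CPM elsewhere. The kinases Csnk1d and Csnk1e, which phosphorylate Per proteins, differed by code number by −0.06 and −0.14. Csnk1d was the 1 gene of the 15 whose labelled groups did not overlap, a share near the 4.58% of all tested genes. It averaged 60.5 ± 6.90 CPM (SD, n = 4) under G3 against 50.2 ± 0.777 CPM (SD, n = 3) under the label G3 PGC1aOE, with a log2 fold change of −0.27 (edgeR adjusted p = 0.847).

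**Figure D5:**
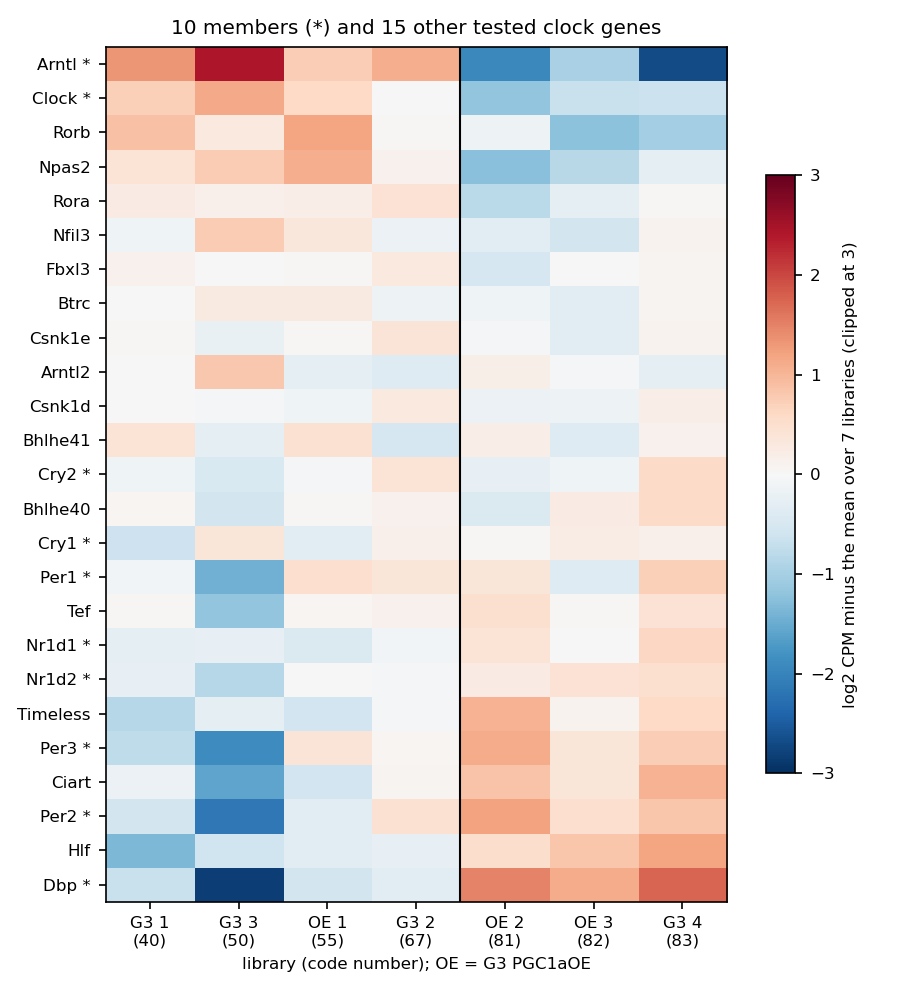
Log2 CPM of the 10 members (marked *) and 15 other tested clock genes, each minus its mean over the 7 libraries (colour, clipped at 3), with libraries ordered by code number and genes by their difference across the black line, which parts code numbers below and above 80. Arntl, Clock, Npas2, Rora and Rorb are near the top, Dbp, Hlf, Per2 and Ciart at the bottom, and G3 3 has the strongest colours of the libraries below 80 for Arntl, Dbp and the Per genes.

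Of 13 genes linked to the clock in heart and other tissues, 3 were above 0 and 10 below between the labelled groups, with a median log2 fold change of −0.33. None passed, and 1 of 13, Pdk4, stood at an unadjusted p under 0.05, where 4.32% of all tested genes stood. The genes of smallest p were Pdk4, the kinase that restrains pyruvate dehydrogenase, Kcnh2, a potassium channel gene, Nampt, an enzyme of NAD synthesis, and Klf15, a regulator of the cardiac potassium current. Their log2 fold changes were −1.09, −0.40, −0.47 and −0.42 (edgeR, adjusted p = 0.847 for each). Kcnh2 was the 1 gene of the 13 whose labelled groups did not overlap, beside 4.58% of all tested genes, at 63 to 75.5 CPM in the libraries labelled G3 PGC1aOE and 78.3 to 127 CPM in G3. By code number, 3 of the 13 were higher and 1, Nampt, lower without overlap, beside 10.2% and 8.81% of all tested genes. Nampt measured 86.7 to 153 CPM above 80 and 176 to 229 CPM below. Pdk4 did not follow the code number, at 592, 146 and 181 CPM in the libraries above 80 in the order G3 4, G3 PGC1aOE 2 and 3. Tcap, a sarcomere gene picked here after its values were seen, was higher in each library above 80, from 1507 to 3396 CPM against 449 to 1404 CPM.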

How the data were processed

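RNA from 7 left ventricle samples was sequenced from unstranded TruSeq libraries, per the labels' protocols. The authors deposited whole-number read counts per Ensembl gene. They also deposited FPKM, which equalled counts over column total and a single gene length. CASAVA and Bowtie 0.12.2 with mm9 were used, per the submitters' processing notes. The sources used here do not give the counting program, its annotation or its handling of multiply matching reads.

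Genes were filtered by filterByExpr (12674 kept) and scaled by TMM in edgeR 4.0.16 under R 4.3.3. Its robust quasi-likelihood test, 2-sided, compared the groups, with p-values adjusted by Benjamini-Hochberg over all tested genes at a threshold of 0.05. Log2 fold changes are G3 PGC1aOE minus G3, and log2 CPM values carry a prior count of 2. Alternatives used DESeq2 1.42.0, limma 3.58.1, other scalings, filters and terms, and each library left out; the removal of a length trend was chosen after seeing the data. The fits were tested on simulated data. The members, gene lists and the division of code numbers at 80 were chosen with earlier results of these data known. Named are all members, the list of other clock genes, the 4 genes of smallest p in each further list, the 5 genes most like and most unlike Arntl, and genes overlapping a member. The immediate early and glucocorticoid response genes are named in full. The labels do not say that the libraries come from separate animals, so p-values measure only the spread between these samples, which may be technical. No 2 libraries of the same group agreed within sampling noise. A gene of the list of other clock genes is not reported here.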

Additional observations from a re-analysis of the deposited data

How the results depend on the processing

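No clock gene was called under any of the 20 alternatives, with the smallest adjusted p at 0.136. Of the 199 member fold changes under an alternative, 184 kept their direction. Arntl was left out by the filter of at least 1 CPM in every library. Over all genes, DESeq2 called 3 and the replicate block 6, and the other alternatives called 0. Equal replicate numbers did not pair the libraries: the deviations of same-numbered libraries correlated at 0.456, 0.123 and −0.086 for numbers 1, 2 and 3, and not every library correlated best with its own number. Under that replicate block Cry1 had 0.01 and Nr1d1 0.21, against −0.06 and −0.02. Other turned directions were Per1 at −0.08 and Cry1 at 0.06 with limma voom, Cry1 at 0.04 with the length trend removed, Nr1d1 at 0.03 with upper quartile factors and at 0.00 (adjusted p = 0.997) with the stricter filter, and Dbp at −0.02 with the code number as a term and −0.05 with the length trend removed too. The cause was not tested.

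Leaving out each library in turn moved the log2 fold change from −2.85 (without G3 PGC1aOE 1) to −1.02 (without G3 3) for Arntl, −1.38 to −0.37 for Clock, 0.21 (without G3 PGC1aOE 2) to 1.86 (without G3 4) for Dbp, −0.18 (without G3 3) to 0.42 for Per1 and −0.05 without G3 PGC1aOE 1, 0.13 to 1.00 for Per2, 0.51 to 1.32 for Per3, −0.23 to 0.07 (without G3 PGC1aOE 1) for Cry1 and 0.05 without G3 3, −0.47 to −0.13 for Cry2, −0.24 to 0.24 (without G3 4) for Nr1d1 and 0.17 without G3 PGC1aOE 1, and 0.13 to 0.58 for Nr1d2. The ratios below ranged from −2.88 to −0.45, −3.56 to −0.85, −3.81 to −1.23, −2.54 to −0.44, −2.94 to −0.79 and −4.29 to −1.05 in the order given. The group difference of the log2 ratio of Arntl to Per1, Per2, Per3, Nr1d1, Nr1d2 and Dbp was −1.53, −2.08, −2.34, −1.25, −1.65 and −2.46 over all libraries. Among code numbers below 80 it kept its sign, at −1.75, −1.31, −2.11, −0.64, −1.24 and −1.58. Among those above 80 it turned, to 1.97, 1.21, 1.23, 1.65, 1.37 and 1.68. Each of these rests on 1 library on a side. The planned correlations were not tested because Arntl splits the libraries into 2 sets.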

Other observations

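Immediate early genes and glucocorticoid response genes report acute signals that also reach the Per genes. None of 6 immediate early genes or 4 glucocorticoid response genes differed without overlap between code numbers above and below 80. Of all tested genes 19.0% did, so 0 among so few genes is not read as a result. Between the labelled groups 0 passed. Atf3 measured 6.38, 8.94, 7.36 and 16.2 CPM in G3 1 to 4 and 38.5, 10.8 and 17.0 CPM in G3 PGC1aOE 1 to 3, with a log2 fold change of 1.18 (SE 0.44, edgeR adjusted p = 0.847; 0.51 without G3 PGC1aOE 1), and Egr1 was highest in the same library at 42.5 CPM against 9.94 to 22.3 CPM in the other 6. G3 PGC1aOE 1 was also the second highest library for Per1. G3 4, the highest for Per1 at 127 CPM, had Egr1 at 14.4 CPM and Atf3 at 16.2 CPM. The other immediate early genes, Fos, Fosb, Junb and Nr4a1, measured 30.8, 2.87, 68.6 and 129.6 CPM in G3 PGC1aOE 1. In G3 4 they measured 5.64, 2.41, 37.1 and 211 CPM. Nr4a1 had its highest value in G3 4, and Fos, Fosb and Junb had theirs in G3 PGC1aOE 1. Whether acute signals had a part in the Per1 levels was not tested.

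Fkbp5, a chaperone gene induced by glucocorticoids and picked here after its values were seen, measured 146, 166 and 94.6 CPM in G3 1, G3 2 and G3 PGC1aOE 1 and between 24.1 and 39.9 CPM in the other 4 libraries. It therefore parted G3 3 from the other libraries numbered below 80. Zbtb16 and Tsc22d3, of the same response, were lowest in G3 3 at 37.7 and 73.0 CPM. Fkbp5 itself was lowest in G3 4 at 24.1 CPM, where Zbtb16 and Tsc22d3 measured 99.4 and 162 CPM. Sgk1, the remaining gene of that list, was lowest in G3 1 at 59.6 CPM and measured 61 CPM in G3 3.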
